A study of Mus musculus with 6 samples.

Results

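The 10 genes described here mark T cells and intraepithelial lymphocytes. They are *Cd3e*, *Cd3g*, *Cd8a*, *Cd8b1*, *Cd4*, *Trdc*, *Gzma*, *Gzmb*, *Itgae* and *Cd160*, chosen by symbol and not by their values, out of 34866 genes in the table. All 10 were found, and all 10 passed the filter on low counts that left 16536 genes. Intraepithelial lymphocytes are T cells lodged between the epithelial cells that line the intestine. Many of them carry a γδ T cell receptor or CD8 made of α chains alone, store granzymes, and hold on to E-cadherin of the epithelial cells through the integrin αE (CD103). They differ in this from the CD4 and naive T cells that circulate through lymphoid tissue.

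RNA was measured in whole adenomas cut out of the intestine of C57BL/6J mice aged between 100 and 120 days. The groups were *Apc1322T*/+ and *ApcMin*/+ mice, with 3 libraries each, whose germline alleles encode truncated Apc proteins of different length, so that both groups carry an *Apc* mutation and normal tissue was not analysed here. By the study's methods, a sample was typically made by pooling several RNA extractions from a single mouse. Nothing was sorted, so a lower value can come from fewer cells of a type or from less RNA per cell, and these cannot be told apart in whole tissue.

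Estimated counts per library ranged from 23132461 to 33518324. The limit of detection was set at 3 counts, or between 0.0895 and 0.130 CPM (counts relative to the library's total). This limit covers counting error only. Epithelial transcripts were abundant, which does not measure the share of epithelial cells. *Epcam*, an epithelial adhesion protein, lay between 10.81 and 11.41 log2 CPM, and 6 epithelial markers summed to between 9615 and 13780 CPM. Plasma cell transcripts were abundant as well, with 5 markers summing to between 2309 and 7382 CPM. The 10 T cell genes together made up 32.4, 99.3 and 142.5 CPM in *Apc1322T* replicates 1, 2 and 3, and 66.5, 83.7 and 43.9 CPM in *ApcMin* replicates 1, 2 and 3. The sums of the groups overlap, since the lowest and the highest both belong to *Apc1322T*.

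In these adenomas, 0 of the 10 genes differed between the genotypes at an adjusted p under 0.01 in edgeR's quasi-likelihood test, where the share of all genes tested was also 0%. DESeq2 and limma-voom called 0 of the 10 as well. At an unadjusted p under 0.05, 0 of 10 were higher in *ApcMin* against 7.49% of all genes, and 0 of 10 were lower against 7.6%. The 3 libraries of a genotype lay wholly above those of the other for 0 of the 10, whereas this held for 11% of all genes towards *ApcMin* and for 9.96% towards *Apc1322T*. Of the 10 genes, 4 had a positive and 6 a negative log2 fold change, positive meaning higher in *ApcMin*, and their median was −0.27 against 0.017 over all genes. The libraries of a genotype lay far apart for these genes. The SD of log2 CPM within genotypes had a median of 0.91 over the 10 genes and of 0.22 over all genes tested.

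**Figure D1:**
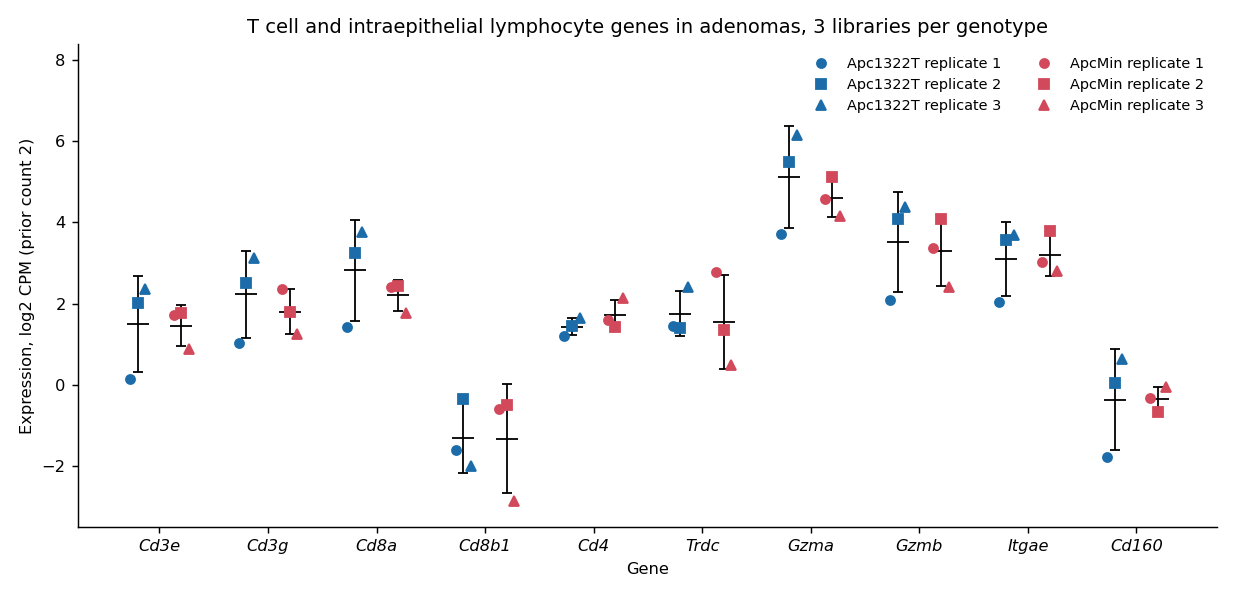
Expression of the 10 T cell and intraepithelial lymphocyte genes in each library on the log2 CPM scale (y axis), with the genes on the x axis, *Apc1322T* in blue and *ApcMin* in red, symbols for the replicate, and horizontal and vertical bars for the mean and SD of 3 libraries. The genotypes overlap for every gene, and *Apc1322T* replicate 1 is the lowest of the 6 libraries for 8 of the 10.

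Compared per kilobase of annotated exon, the granzymes were the most abundant of the 10. *Gzma* averaged 33.99 CPM per kb over the 6 libraries and *Gzmb* 8.63, and *Gzma* exceeded *Gzmb*, and *Gzmb* exceeded *Itgae*, in each library. *Itgae* (2.09 CPM per kb), *Cd8a* (1.82), *Cd3g* (1.38), *Trdc* (0.908), *Cd3e* (0.749) and *Cd4* (0.737) followed. Within this stretch each gene changed places with its neighbour in at least 1 library, so their order is not fixed by these data. *Cd160* (0.304 CPM per kb) and *Cd8b1* (0.272) came last, below *Cd4* in each library, and also changed places with each other.

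*Cd3e* and *Cd3g* encode signalling chains of the CD3 complex, which every T cell receptor needs to reach the cell surface. The promoters of both, from 250 bases before to 50 bases after the start of the transcript, are shown because both genes belong to the CD3 cluster on chromosome 9, with *Cd3d* between them, and their levels varied together over the libraries. They are RefSeq sequences on GRCm38.p6, minus strand, at chr9:45009562-45009861 for *Cd3e* and chr9:44980382-44980681 for *Cd3g*, with capitals marking the E box letters CAGGTG or their reverse complement CACCTG, a sequence bound by E proteins.
Cd3e: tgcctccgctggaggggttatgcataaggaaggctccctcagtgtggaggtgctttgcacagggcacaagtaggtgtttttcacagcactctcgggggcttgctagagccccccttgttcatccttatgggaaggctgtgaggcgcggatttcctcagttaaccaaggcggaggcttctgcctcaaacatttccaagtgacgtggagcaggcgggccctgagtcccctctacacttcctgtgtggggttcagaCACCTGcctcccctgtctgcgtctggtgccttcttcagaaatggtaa
Cd3g: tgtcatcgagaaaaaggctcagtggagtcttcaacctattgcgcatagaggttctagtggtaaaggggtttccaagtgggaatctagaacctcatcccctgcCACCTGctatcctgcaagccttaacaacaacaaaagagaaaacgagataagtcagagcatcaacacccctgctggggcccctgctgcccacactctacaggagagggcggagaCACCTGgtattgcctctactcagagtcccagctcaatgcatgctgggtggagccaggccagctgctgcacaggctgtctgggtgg
The E box letters occur once or more in 20.2% of the 32851 mouse promoters of the same length, and in 4 of the 6 members with a promoter in the RefSeq table (*Cd3e*, *Cd3g*, *Gzma* and *Cd160*). The share counts promoters, whereas members were counted per gene. *Cd160* has 2 promoters, and 1 of them holds the letters. The match is a description of these letters and not a mapped binding site.

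The log2 CPM of *Cd3e* was 0.14, 2.01 and 2.35 in *Apc1322T* replicates 1, 2 and 3 and 1.72, 1.77 and 0.88 in *ApcMin* replicates 1, 2 and 3. *Apc1322T* replicate 1, with 28 estimated counts against 56 to 115 elsewhere, was the lowest and *Apc1322T* replicate 3 the highest, and the *ApcMin* libraries lay between them. The log2 fold change was −0.26 ± 0.58 (SE, n = 3 per genotype) with an adjusted p of 0.842 in edgeR's quasi-likelihood test. Counting error accounts for an SD of about 0.16 on the log2 scale at these counts, while the SD within genotypes was 0.91. *Cd3g* had the same lowest and highest library, with 1.04, 2.52 and 3.14 log2 CPM in *Apc1322T* and 2.37, 1.79 and 1.25 in *ApcMin*. Its log2 fold change of −0.60 ± 0.56 had an adjusted p of 0.614 in the same test.

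*Trdc* encodes the constant region of the receptor δ chain and so marks γδ T cells. Its values were 1.46, 1.40 and 2.40 log2 CPM in *Apc1322T* and 2.78, 1.35 and 0.49 in *ApcMin*. Unlike the CD3 genes it was highest in *ApcMin* replicate 1, with 243 estimated counts, and lowest in *ApcMin* replicate 3, with 42. The extremes thus both belonged to *ApcMin*, and the log2 fold change was 0.025 ± 0.63 (adjusted p = 0.986, edgeR). *Trdc* shares 207 of its 3865 exonic bases with *Trdv5* on the other strand, which had between 0 and 4 estimated counts.

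The remaining 8 genes of the receptor complex gave the same picture of spread without a called difference. Of the 11 genes of the complex, 8 had a lower and 3 a higher mean in *ApcMin*, 0 passed an adjusted p under 0.01, and 8 were lowest in *Apc1322T* replicate 1. The log2 fold changes were −0.37 for *Cd3d* and −0.28 for *Cd247*, both CD3 complex signalling chains. *Trac*, the α chain constant region, had a log2 fold change of −0.62 ± 0.33 and the smallest adjusted p of the list, 0.409 (edgeR). The β chain constant regions *Trbc1* and *Trbc2* had 0.16 and 0.19, and the γ chain constant regions *Tcrg-C1*, *Tcrg-C2* and *Tcrg-C4* had −0.94, −0.37 and −0.76. The constant regions within the β and within the γ group are close copies of each other, so that their separate counts depend on how Salmon divided shared reads. *Tcrg-C1* was high in *Apc1322T* replicate 3 and *ApcMin* replicate 1, with 122 and 110 estimated counts, as was *Trdc*, and had 33 to 81 in the others.

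CD8 is the co-receptor for MHC class I. Conventional cytotoxic T cells carry it as a pair of α and β chains, encoded by *Cd8a* and *Cd8b1*, and many intraepithelial lymphocytes as α chains alone. *Cd8a* had 1.42, 3.26 and 3.77 log2 CPM in *Apc1322T* and 2.41, 2.44 and 1.76 in *ApcMin*. Both the lowest and the highest library were of *Apc1322T*, and the *ApcMin* libraries stood in a narrow band below the upper pair. With a log2 fold change of −0.88 ± 0.57 it had the largest difference of the 10 genes, and its adjusted p was 0.472 in edgeR and 0.396 in DESeq2.

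*Cd8b1* was close to the limit of detection, with 7, 15 and 4 estimated counts in *Apc1322T* and 21, 16 and 2 in *ApcMin*. *ApcMin* replicate 3 lay under the 3 counts taken as that limit, and the level of *Cd8b1* in *Apc1322T* replicate 3, where *Cd8a* was highest, was among the lowest. The log2 fold change was 0.17 ± 0.87 (adjusted p = 0.933, edgeR). Per kilobase of exon *Cd8b1* lay below *Cd8a* in each library, at between 0.0426 and 0.481 CPM per kb where *Cd8a* had between 0.716 and 3.74.

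*Cd4* encodes the co-receptor for MHC class II, which helper and regulatory T cells carry and which some dendritic cells and lymphoid tissue inducer cells of the mouse carry as well. It varied least of the 10, at 1.21, 1.45 and 1.65 log2 CPM in *Apc1322T* and 1.59, 1.42 and 2.14 in *ApcMin*. The highest library was *ApcMin* replicate 3, in which 8 of the 10 genes lay below their own mean, and the highest was only 1.91-fold above the lowest, compared with between 3.35-fold and 5.76-fold for the other 9 genes. The log2 fold change was 0.31 ± 0.28 (adjusted p = 0.604, edgeR), the largest positive value of the 10.

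Granzymes A and B are serine proteases that killer lymphocytes release into their targets. Their promoters are shown because the levels of both genes followed *Cd3e* closely. They are RefSeq sequences on GRCm38.p6, minus strand, at chr13:113100932-113101231 for *Gzma* and chr14:56262285-56262584 for *Gzmb*, with capitals marking the E box letters as above and the RUNX core TGTGGT or its reverse complement ACCACA, to which Runx factors bind.
Gzma: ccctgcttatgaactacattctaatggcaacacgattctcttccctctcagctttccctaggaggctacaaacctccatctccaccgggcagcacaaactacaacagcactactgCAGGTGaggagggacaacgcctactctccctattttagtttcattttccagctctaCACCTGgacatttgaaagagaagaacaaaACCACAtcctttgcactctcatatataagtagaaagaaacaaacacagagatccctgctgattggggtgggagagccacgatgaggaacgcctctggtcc
Gzmb: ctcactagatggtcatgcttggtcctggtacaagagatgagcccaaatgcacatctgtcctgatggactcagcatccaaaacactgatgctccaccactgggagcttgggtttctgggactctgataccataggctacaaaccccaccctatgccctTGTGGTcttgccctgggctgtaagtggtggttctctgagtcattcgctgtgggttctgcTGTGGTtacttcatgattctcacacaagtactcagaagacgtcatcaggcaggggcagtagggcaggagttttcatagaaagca
The RUNX core letters were found on either strand in 3 of the 6 members with a promoter (*Gzma*, *Gzmb* and *Cd160*), counted per gene. They occur in 16.8% of all promoters in the table. *Gzma* held the letters of both motifs, and in *Gzmb* those of the E box are not in this window, which says nothing about the factor.

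*Gzma* had 3.72, 5.49 and 6.16 log2 CPM in *Apc1322T* and 4.57, 5.12 and 4.15 in *ApcMin*. As for *Cd3e*, the lowest and highest libraries were *Apc1322T* replicates 1 and 3, with 356 and 1630 estimated counts. The log2 fold change of −0.77 ± 0.59 had an adjusted p of 0.543 in edgeR's test. *Gzmb* had 2.10, 4.07 and 4.39 log2 CPM in *Apc1322T* and 3.36, 4.09 and 2.41 in *ApcMin*, and its log2 fold change was −0.37 ± 0.65 (adjusted p = 0.800, edgeR). *ApcMin* replicate 2 stood level with the upper *Apc1322T* libraries for *Gzmb*, so that the groups overlap almost over their whole range. At the depth of *Gzma*, the counting SD was 0.049 on the log2 scale against an SD within genotypes of 0.96.

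Of 10 genes for cytotoxic effectors, 7 passed the filter, 6 with a lower and 1 with a higher mean in *ApcMin* (4 and 3 when scaled by library totals), and 0 were called. All 7 were highest in *Apc1322T* replicate 3, which holds for 15.3% of all genes tested. Besides the granzymes, the smallest unadjusted p was that of *Nkg7*, a protein of cytotoxic granules, with −0.38, 1.52 and 2.41 log2 CPM in *Apc1322T*, 0.71, 0.82 and 0.45 in *ApcMin*, and a log2 fold change of −0.94 ± 0.65 (adjusted p = 0.501, edgeR). Natural killer cells also make granzymes. Of 6 markers of these cells 0 passed the filter, *Klra8* had 0 counts in each library, *Ncr1* had between 0 and 4, and the 6 summed to between 0.367 and 1.31 CPM.

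*Itgae* encodes the αE integrin chain that binds E-cadherin. It had 2.05, 3.57 and 3.70 log2 CPM in *Apc1322T* and 3.02, 3.79 and 2.81 in *ApcMin*, with *Apc1322T* replicate 1 lowest and *ApcMin* replicate 2 highest. The log2 fold change was 2.3e-04 ± 0.47 (adjusted p = 1.00, edgeR), an SE that leaves room for a change in either direction. *Haspin*, which lies inside *Itgae* on the other strand, shares 0 exonic bases with it.

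*Cd160* encodes a receptor of intraepithelial and cytotoxic lymphocytes whose ligand is the epithelial protein HVEM. It had few counts, with 6, 20 and 34 in *Apc1322T* and 26, 14 and 28 in *ApcMin*, or −1.77, 0.034 and 0.64 log2 CPM against −0.32, −0.68 and −0.062. Here too *Apc1322T* replicates 1 and 3 were the extremes, and the log2 fold change was −0.28 ± 0.65 (adjusted p = 0.850, edgeR). *Cd160* shares 68 of its 2642 exonic bases with *Pdzk1* on the other strand, and the use of strand in quantification is not given in the sources used here. *Pdzk1* had 267, 2027 and 2502 estimated counts in *Apc1322T* and 1303, 1549 and 66 in *ApcMin*. In *Apc1322T* both genes rose from replicate 1 to replicate 3. In *ApcMin* replicate 3 was the lowest library for *Pdzk1* and the highest for *Cd160*. The part of *Pdzk1* reads in the counts of *Cd160* was not tested.

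Of the 18 genes of intraepithelial residence and innate-like receptors, which include *Itgae* and *Cd160*, 16 passed the filter, 8 with a higher and 8 with a lower mean in *ApcMin* (9 and 7 when scaled by library totals), and 0 were called. *Apc1322T* replicate 1 lay below the mean of the 6 libraries for all 16. *Runx3*, a transcription factor of CD8 lineage cells, had the smallest unadjusted p, with a log2 fold change of 0.68 ± 0.39 (adjusted p = 0.423, edgeR) and its highest level in *ApcMin* replicate 1. *Fcer1g* and *Tyrobp*, signalling adaptors that macrophages express as well, followed with 0.60 and 0.62 and were also highest there, with 788 and 740 estimated counts against at most 277 elsewhere. In that library 8 macrophage markers summed to 498.5 CPM against 166.4 to 225.3 in the others, and the part of this in those 3 genes was not tested.

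Most of the T cell genes varied with *Cd3e* across libraries, while *Trdc*, *Cd8b1* and *Cd4* followed it less. As a description over the 6 libraries, which share depth and preparation for all genes, the log2 CPM of *Cd3e* had a Pearson correlation of 0.958 with *Gzmb*, 0.934 with *Gzma*, 0.930 with *Cd8a*, 0.929 with *Itgae*, 0.923 with *Cd3g* and 0.812 with *Cd160*. It was 0.492 with *Trdc*, 0.393 with *Cd8b1* and 0.0865 with *Cd4*. The share of all genes tested with a correlation as high as that of *Cd160* or above is not given. The higher values therefore do not set these genes apart from others. The genes outside the lists whose pattern was most like that of *Cd3e*, with correlations between 0.983 and 0.990 over the 6 libraries, were *Olfr967*, *H2-T-ps*, *Sesn1*, *Apol10b* and *Tnfsf10*. *Sesn1*, the most abundant of these, had 3.85, 5.37 and 5.50 log2 CPM in *Apc1322T* and 4.96, 5.04 and 4.14 in *ApcMin*.

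*Apc1322T* replicate 1 was the lowest library for 8 of the 10 genes (80%) and for 15.3% of all genes tested. *ApcMin* replicate 3 was the lowest for *Cd8b1* and *Trdc*. Together these 2 libraries were the lowest for 34.6% of all genes tested. Both were singled out from the values of the 10 genes, so these shares are a description and not a test. *Apc1322T* replicate 3 was the highest for 6 of the 10. Relative to each gene's mean over the 6 libraries, the median of the 10 genes was −1.10, 0.52 and 0.93 log2 CPM in *Apc1322T* and 0.025, 0.088 and −0.73 in *ApcMin*. All 10 lay below their mean in *Apc1322T* replicate 1. The lowest and the highest of these 6 medians both belonged to *Apc1322T*.

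**Figure D2:**
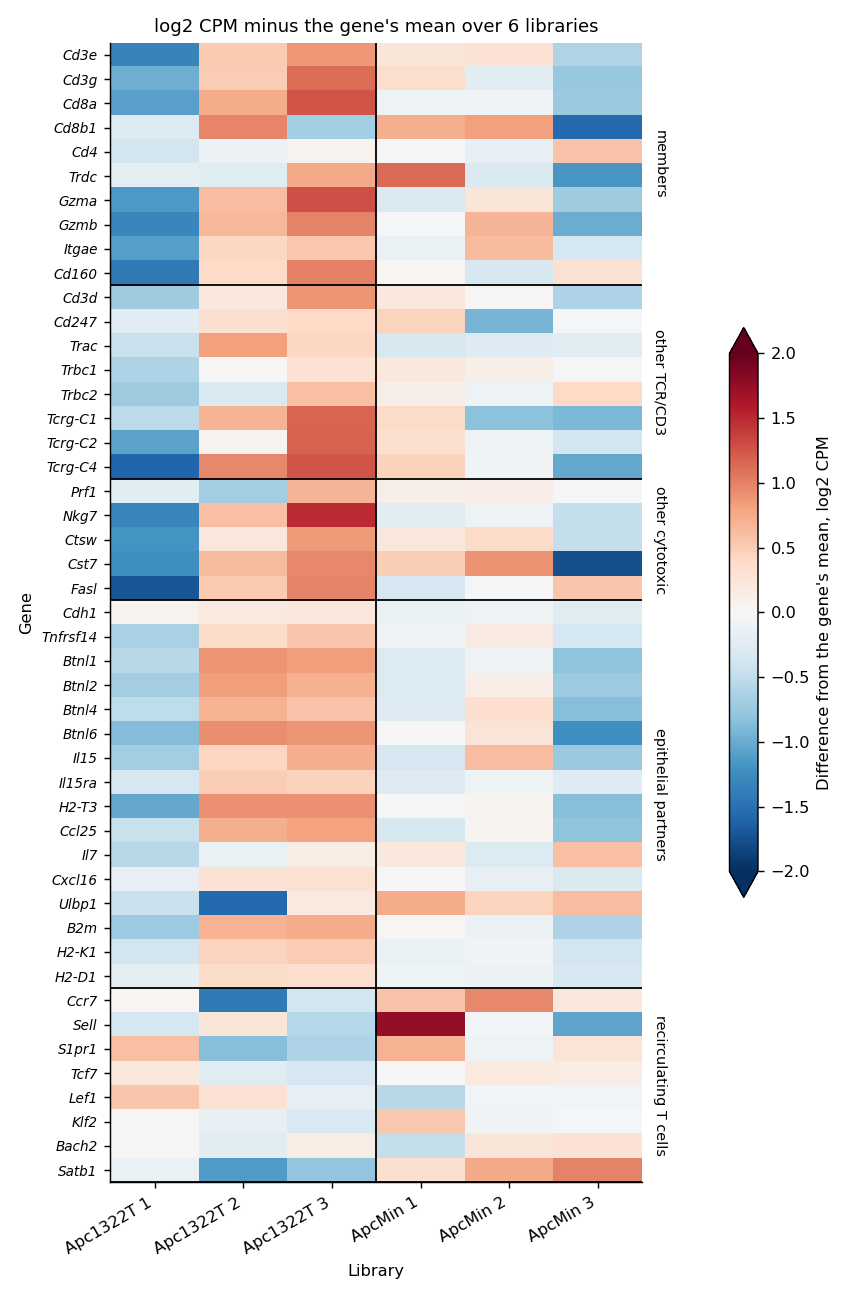
Difference of log2 CPM from the gene's mean over the 6 libraries (colour scale, red above and blue below, ending at 2 in either direction), with libraries on the x axis and genes on the y axis, grouped into the 10 T cell genes, the other genes of the receptor complex and of cytotoxic effectors, epithelial partners of intraepithelial lymphocytes, and genes of recirculating T cells. *Apc1322T* replicate 1 and *ApcMin* replicate 3 are mostly blue from the top down to the epithelial partners, and *Apc1322T* replicate 3 mostly red, while genes of recirculating T cells do not show this pattern.

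Epithelial genes that attract, retain or instruct intraepithelial lymphocytes were low in *Apc1322T* replicate 1 and *ApcMin* replicate 3 too. Their median differences from the mean were −0.53 and −0.50 log2 CPM there. Of 16 such genes 14 had a lower and 2 a higher mean in *ApcMin*, and 0 were called. In these 2 libraries 15 were lowest, against 34.6% of all genes tested. Only 5 were lowest in *Apc1322T* replicate 1, the lowest library for 8 of the 10 T cell genes, and the rest of the 15 in *ApcMin* replicate 3. *Btnl1*, a butyrophilin-like protein that maintains γδ T cells of the gut, had 5.83, 7.27 and 7.23 log2 CPM in *Apc1322T* and 6.11, 6.32 and 5.58 in *ApcMin*. *H2-T3*, which encodes the thymus leukaemia antigen bound by CD8 α chains, had 4.46, 6.40 and 6.39 against 5.48, 5.54 and 4.63. The log2 fold changes were −0.88 ± 0.40 and −0.71 ± 0.53, with adjusted p-values of 0.360 and 0.529 in edgeR.

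The genes of the list with the smallest unadjusted p were *Cdh1*, *Ulbp1* and *H2-D1*. *Cdh1*, which encodes E-cadherin, the ligand of the αE integrin, had 10.04, 10.16 and 10.20 log2 CPM in *Apc1322T* and 9.84, 9.87 and 9.73 in *ApcMin*. All 3 *ApcMin* libraries lay below all 3 of *Apc1322T*, with a log2 fold change of −0.32 ± 0.10 and an adjusted p of 0.286 in edgeR. General epithelial markers were lower as well. All 6 had a lower mean in *ApcMin* (5 when scaled by library totals), with a median log2 fold change of −0.37. For 4 of the 6 the genotypes did not overlap, against 9.96% of all genes in that direction. *Ulbp1*, a stress ligand of the receptor NKG2D, was higher in all 3 *ApcMin* libraries (1.05 ± 0.41, adjusted p = 0.317), and *H2-D1*, a class I molecule, had −0.36 ± 0.17 (adjusted p = 0.359). Values of 8 enterocyte markers moved with these libraries too. Their median difference from the mean was −0.34, 0.85 and 0.95 log2 CPM in *Apc1322T* and −0.64, 0.32 and −1.04 in *ApcMin*, all 8 had a lower mean in *ApcMin*, and their part in the spread of the T cell genes was not tested.

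Ratios of the counts of 2 genes within a library do not depend on how libraries are scaled, and 11 pairs were compared with an exact permutation test over the 20 assignments of 6 libraries, two-sided, which cannot give a p under 0.10. *Cd8a* relative to *Cd3e* was 1.33, 1.26 and 1.43 on the log2 scale in *Apc1322T* and 0.71, 0.67 and 0.90 in *ApcMin*. All 3 *ApcMin* libraries lay below all 3 of *Apc1322T*, with means of 1.34 ± 0.085 and 0.76 ± 0.12 (SD, n = 3), and this was the single pair of the 11 without overlap. The difference of −0.58 reached the smallest p of the exact test, 0.10, which became 0.733 after adjustment over the 11 pairs. With each library left out in turn it lay between −0.65 and −0.53, where its sign could not change because the groups do not overlap.

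The other pairs overlapped. *Gzmb* relative to *Cd3e* was nearly constant in *Apc1322T*, at 2.02, 2.08 and 2.05 on the log2 scale, and ranged from 1.56 to 2.34 in *ApcMin*, with an exact p of 0.40. *Cd4* relative to *Cd8a* was −0.22, −1.83 and −2.14 in *Apc1322T* and −0.84, −1.04 and 0.38 in *ApcMin* (exact p = 0.30). *Cd4* exceeded *Cd8a* in counts in *ApcMin* replicate 3 and in no other library. *Trdc* relative to *Cd3e* was highest in replicate 1 of both genotypes, at 1.37 in *Apc1322T* and 1.08 in *ApcMin*, where the other 4 libraries lay between −0.62 and 0.049 (exact p = 0.70). *Itgae* relative to *Cd3e* spanned 0.72 on the log2 scale over the 6 libraries, less than the 2.21 spanned by the log2 CPM of *Cd3e*.

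**Figure D3:**
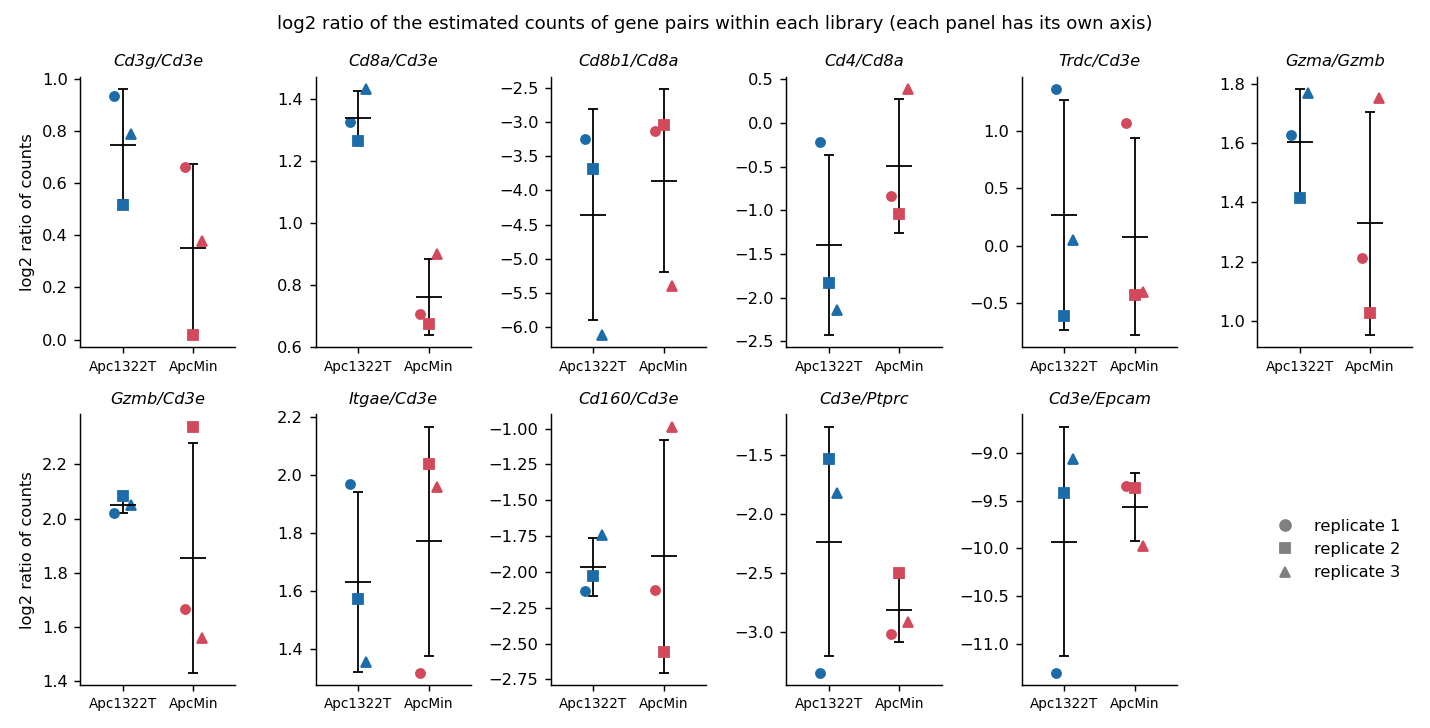
Log2 ratio of the estimated counts of 2 genes within each library (y axis, a separate scale in each panel) for 11 gene pairs, by genotype (x axis, *Apc1322T* in blue and *ApcMin* in red), with symbols for the replicate and bars for the mean and SD of 3 libraries. *Cd8a* to *Cd3e* is the pair in which the genotypes do not overlap, at 1.26 to 1.43 against 0.67 to 0.90.

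*Cd3e* relative to *Ptprc*, the leukocyte common antigen, was −3.34, −1.53 and −1.83 in *Apc1322T* and −3.01, −2.50 and −2.92 in *ApcMin*. The low value of *Cd3e* in *Apc1322T* replicate 1 was thus also low against *Ptprc*, which had 3.41 log2 CPM there and between 3.53 and 4.71 in the other libraries. Relative to *Epcam*, *Cd3e* was −11.30, −9.42 and −9.06 in *Apc1322T* and −9.35, −9.37 and −9.98 in *ApcMin*. *Apc1322T* replicate 1 was the lowest library in both ratios, and the exact permutation test of the genotypes gave p = 0.40 and 0.80.

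Genes of recirculating T cells had other libraries at the extremes. Of 8 such genes, 7 had a higher mean in *ApcMin* and 0 were called. Against 7.49% of all genes, 2 of the 8 were higher at an unadjusted p under 0.05 in edgeR. These were *Satb1*, a chromatin organiser of T cells, with 0.66, −0.35 and −0.011 log2 CPM in *Apc1322T* and 1.10, 1.54 and 1.78 in *ApcMin*, and *Ccr7*, the receptor that leads T cells into lymphoid tissue. Their log2 fold changes were 1.38 ± 0.37 and 1.11 ± 0.45, with adjusted p-values of 0.279 and 0.321 in edgeR. For both, all 3 *ApcMin* libraries lay above all 3 of *Apc1322T*, which held for 2 of the 8 and for 11% of all genes. *Apc1322T* replicate 1, the lowest for most of the 10 genes, was the lowest for 0 of these 8. *Tcf7* and *Lef1* of this list are Wnt pathway factors that epithelial cells also express, and had log2 fold changes of 0.22 and −0.46.

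Of 13 genes of helper and regulatory T cells, 11 passed the filter, 7 with a higher and 4 with a lower mean in *ApcMin* (9 and 2 when scaled by library totals), and 0 were called. *Il7r*, the receptor for interleukin 7, had 0.59, 0.10 and 1.03 log2 CPM in *Apc1322T* and 2.39, 1.31 and 1.65 in *ApcMin*, with a log2 fold change of 1.27 ± 0.40 (adjusted p = 0.286, edgeR). *Ctla4*, an inhibitory receptor of regulatory T cells, had 24, 0 and 11 estimated counts in *Apc1322T* and 50, 36 and 82 in *ApcMin*, and 1.94 ± 0.91 (adjusted p = 0.364). For both the genotypes did not overlap, in contrast to *Cd4*, which held for 2 of the 11 genes and for 11% of all genes towards *ApcMin*. *Gata3*, a factor of helper cells and innate lymphoid cells, had −0.65 ± 0.34 (adjusted p = 0.395). Among 5 inhibitory receptors and related genes 0 were called, with log2 fold changes between −0.21 for *Pdcd1* and 0.71 for *Havcr2*, and of 0.44 for *Tigit* and −0.20 for *Tox*, a factor of exhausted T cells. Of 13 genes for T cell signalling and adhesion, 12 passed, 8 of them with a higher mean in *ApcMin* (10 when scaled by library totals), and 0 were called. Its genes of smallest unadjusted p were *Cd28* (0.98 ± 0.49), *Thy1* (0.97 ± 0.50) and *Lcp2* (0.44 ± 0.28). Of the 12 that passed, 10 were lowest in *Apc1322T* replicate 1 or *ApcMin* replicate 3, against 34.6% of all genes tested. The same held for 5 of 6 pan-leukocyte markers and for 7 of 7 mast cell markers, the latter all in *ApcMin* replicate 3. It held for 3 of the 11 genes of helper and regulatory T cells and 1 of the 8 of recirculating T cells. These 2 libraries are those in which the 10 T cell genes were lowest, so a count for those 10 is set by that choice.

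Markers of other cells moved with the genotype or with single libraries as follows, and their part in the T cell genes was not tested. Markers of lymphoid follicle stroma and M cells were higher in *ApcMin* for 7 of 7 identifiers tested (6 with DESeq2's size factors, its Wald test or limma-voom). Of the 7, 4 were higher at an unadjusted p under 0.05 in edgeR, against 7.49% of all genes. The markers summed to between 17.2 and 21.3 CPM in *Apc1322T* and between 29.1 and 51.6 CPM in *ApcMin*. *Ccl21a*, the ligand of Ccr7, is listed under 2 identifiers of near-identical sequence that share reads, with log2 fold changes of 2.10 ± 0.38 and 1.21 ± 0.41, adjusted p-values of 0.257 and 0.288 in edgeR, and of 2.46e-04 and 0.140 in DESeq2. Of the 7, the first of these and *Gp2*, a receptor of M cells (3.94 ± 0.71, adjusted p = 0.257 in edgeR and 1.5e-05 in DESeq2), had an adjusted p under 0.01 in DESeq2. Such a value in DESeq2 was found for 191 of all 16536 genes. *Cd22* of B cells had 1.44 ± 0.41 (adjusted p = 0.279, edgeR). In the other lists of cell types, the gene of smallest unadjusted p had a log2 fold change of 0.73 for *C1qa* of macrophages, 0.84 for *Cxcr2* of neutrophils, 0.54 for *Flt3* of dendritic cells, 0.59 for *Coro1a* of all leukocytes, 0.15 for *Sdc1* of plasma cells, 0.63 for *Tagln* of smooth muscle, −0.39 for *Epcam* and −1.32 for *Fabp1* of enterocytes. *Apc* itself had 6.41 to 6.47 log2 CPM in *Apc1322T* and 6.80 to 6.97 in *ApcMin*, with an adjusted p of 0.257 in edgeR and 0.0093 in DESeq2. Markers of mast cells, another intraepithelial resident, were low in the same libraries as most of the T cell genes, but highest in another library. All 7 lay below their mean in *Apc1322T* replicate 1 and *ApcMin* replicate 3, with median differences of −1.29 and −1.67 log2 CPM. These markers were all highest in *ApcMin* replicate 2 and all lowest in *ApcMin* replicate 3. *Mcpt4* had a log2 fold change of 0.63 ± 0.85, and the sum of the 7 markers ranged from 119.6 to 1270 CPM.

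The differences of the 10 genes depended on which libraries were included. Without *Apc1322T* replicate 1, the median log2 fold change of the 10 genes was −0.72 and 9 of 10 were negative. *Cd8a* (−1.31 ± 0.29, adjusted p = 0.0742), *Gzma* (−1.19 ± 0.35, adjusted p = 0.139) and *Cd3g* (−0.99 ± 0.39, adjusted p = 0.195) were then lower in *ApcMin* at an unadjusted p under 0.05 in edgeR's quasi-likelihood test, though not at an adjusted p under 0.01. This made 3 of 10, beside 13.2% of the 16851 genes then tested that were lower at that unadjusted p. The *Apc1322T* libraries then left are the 2 in which most of the genes were high. Without *Apc1322T* replicate 3 the median was instead 0.10 and 4 of 10 were negative, and 0 of 10 had an unadjusted p under 0.05. The median was −0.18 without *Apc1322T* replicate 2, and −0.36, −0.38 and −0.030 without *ApcMin* replicates 1, 2 and 3. *Trdc* turned to −0.88 without *ApcMin* replicate 1, and *Itgae* to −0.36 without *ApcMin* replicate 2. *Cd3g*, *Cd8a* and *Gzma* kept a negative and *Cd4* a positive log2 fold change with each library left out.

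**Figure D4:**
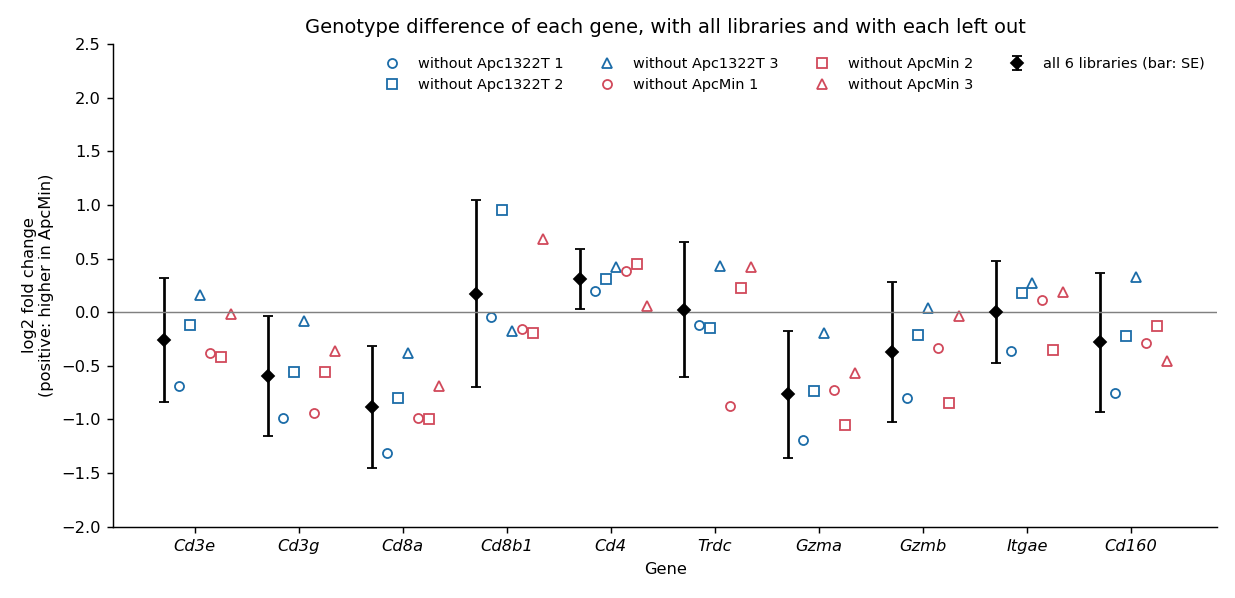
Log2 fold change of each of the 10 genes on the y axis (positive meaning higher in *ApcMin*), genes on the x axis, from all 6 libraries (black diamonds with SE bars) and with each library left out (open symbols, blue for *Apc1322T* and red for *ApcMin*). For *Cd8a* the values run from −1.31 without *Apc1322T* replicate 1 to −0.38 without *Apc1322T* replicate 3, and *Cd4* stays above 0 throughout.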

How the data were processed

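RNA-seq libraries of adenomas from *Apc1322T* and *ApcMin* mice, 3 per genotype, were grouped by their labels. The authors deposited estimated counts per gene, made with Salmon from GRCm38.p6 transcripts and not scaled for library size or length. These were rounded. Symbols, coordinates and exonic lengths came from GENCODE M21 by Ensembl identifier, for 34652 of 34866 genes. Genes were kept with filterByExpr (minimum count 10, minimum total 15), which left 16536. TMM normalisation and the quasi-likelihood test of edgeR 4.0.16 (robust, R 4.3.3) were used, with Benjamini-Hochberg adjustment over all genes tested and a threshold of 0.01. Each SE was the absolute log2 fold change divided by the square root of F. Log2 CPM used a prior count of 2, and ratios a pseudocount of 0.5.

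The 10 genes, the other gene lists and the pairs were chosen with earlier results of these data known. Genes named were the 10, the receptor complex, the 3 of smallest unadjusted p in each other pathway list and 1 in each cell type list, *Cdh1*, *Epcam*, *Ptprc* and *Apc*, and the 5 most like *Cd3e* with an SD of log2 CPM of at least 0.5. *Btnl1*, *H2-T3*, *Tcf7*, *Pdcd1*, *Klra8*, *Ncr1*, *Pdzk1*, *Haspin*, *Trdv5* and *Gp2* were named after their values were seen. On simulated counts edgeR recovered, at an adjusted p under 0.01, 26.9% of genes changed by 1 on the log2 scale, 82.1% at 2 and 92.4% at 3, among 16273 genes tested. The changed genes were drawn from all genes with higher counts. The 10 T cell genes had a larger SD within genotypes (median 0.91 against 0.22 over all genes), and recovery for them was not measured. No library was a copy of another of its genotype (chi-square per gene at least 24.3). The labels do not state that samples of a genotype came from separate mice, so p-values measure only the spread between these samples. Alternatives were other filters, scalings and tests (DESeq2 1.42.0, limma-voom 3.58.1), each library left out, and the replicate number as a block.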

Additional observations from a re-analysis of the deposited data

How the results depend on the processing

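Genes at an adjusted p under 0.01 numbered 0 in edgeR's test, with 2495 at an unadjusted p under 0.05, 1 without a filter on low counts, 194 with DESeq2's Wald test (0 of the 10 T cell genes) and 1 at an adjusted p under 0.05. With each library left out they numbered between 0 and 1, and genes at an unadjusted p under 0.05 between 1180 (without *Apc1322T* replicate 2) and 4117 (without *Apc1322T* replicate 1), with 1472 without *Apc1322T* replicate 3 and 1649 without *ApcMin* replicate 3. The replicate numbers 1 to 3 occur in both genotypes. The deviations of same-numbered libraries from their genotype's mean had correlations of −0.0139, 0.164 and −0.286. Those of differently numbered libraries lay between −0.359 and 0.329. With 3 libraries the deviations within a genotype depend on each other, so these values cannot show whether same-numbered libraries shared a preparation. With the replicate number as a block, 0 genes passed an adjusted p under 0.01, 2113 had an unadjusted p under 0.05, the median log2 fold change of the 10 genes was −0.13, and *Trdc* had −0.19. Scaling by library totals moved the median of all genes from 0.017 to 0.17 and that of the 10 genes to −0.086.

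Other values changed sign as follows. *Itgae* had −0.0082 with DESeq2's size factors and −0.014 with its Wald test, and *Olfr967* had 0.026 with library totals. With limma-voom *Cd3e* had 0.023, *Cd8b1* −0.12, *Trdc* −0.17, *Cd160* 0.12 and *Olfr967* 0.024. The log2 ratio of *Cd160* to *Cd3e* differed by −0.020 with a pseudocount of 5. With each library left out in turn, log2 fold changes ranged from −0.69 to 0.16 for *Cd3e*, from −0.19 to 0.96 for *Cd8b1*, from −0.88 to 0.43 for *Trdc*, from −0.85 to 0.043 for *Gzmb*, from −0.36 to 0.27 for *Itgae* and from −0.75 to 0.33 for *Cd160*. They ranged from −0.69 to 0.096 for *Cd3d*, from −0.65 to 0.022 for *Cd247*, from −0.056 to 0.37 for *Trbc1*, from −0.067 to 0.65 for *Trbc2*, from −0.77 to 0.38 for *Tcrg-C2*, from −0.53 to 0.31 for *Olfr967*, from −0.79 to 0.16 for *H2-T-ps*, from −0.70 to 0.27 for *Apol10b* and from −0.25 to 1.41 for *Mcpt4*. Ratio differences ranged from −0.39 to 1.26 for *Cd8b1* to *Cd8a*, from −0.69 to 0.36 for *Trdc* to *Cd3e*, from −0.37 to 0.41 for *Cd160* to *Cd3e* and from −0.32 to 0.80 for *Cd3e* to *Epcam*. The causes were not tested. Of the other values of single genes and pairs under an alternative, 857 kept their direction and side of the threshold and 2 passed it, those of *Ccl21a* and *Apc* with DESeq2's Wald test.

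With 3 libraries a genotype, the SD within genotypes differed by gene and had a median of 0.91 over the 10. The log2 fold change lay within about 2 SE for each of the 10 genes. Depth limits *Cd8b1* and *Cd160*, whose counting SDs were 0.44 and 0.31 on the log2 scale.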
